A study of Mus musculus with 8 samples.

Results

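Heparan sulfate proteoglycans are proteins that carry long sulfated sugar chains at the cell surface or in the matrix. The 10 genes described here encode core proteins of this family: the glypicans Gpc1, Gpc2, Gpc3, Gpc4 and Gpc6, the syndecans Sdc1 to Sdc4, and perlecan (Hspg2). They were taken by gene name from arrays that held 27725 gene names, of which 12884 were bright enough to be tested. All 10 were among those tested, and 16 of the 41174 non-control probes belonged to them. Gpc1 was selected on its measured rise between the groups compared here, so its difference is given as a description with no test. The other 9 were chosen by family membership, with earlier results of these arrays known.

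RNA came from hearts of minKGFP transgenic mouse embryos at stage E10.5 (mid-gestation), in which a bacterial artificial chromosome reports activity of the potassium channel gene minK (Kcne1) as green fluorescence. Pancreatin and collagenase were used to free the cells, which were then sorted by fluorescence. The GFP-high group (4 arrays) is labelled conduction system cells and the GFP-low group (4 arrays) chamber myocardium. Both groups carry the same transgene, so GFP-low is no transgene-free control, and the sort reads the reporter and not anatomy. The labels give neither the number or sex of embryos per sample nor a source for each of the biological replicates, so p-values measure the spread between these samples.

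The chains of these proteins bind growth factors such as FGFs, BMPs, Wnts and hedgehog proteins, and shape how far they spread and how well they reach their receptors. Glypicans are fixed to the outer membrane by a lipid anchor, syndecans cross the membrane and hold a short tail inside the cell, and perlecan is secreted into basement membranes. In the embryonic heart, growth factors of these classes take part in the patterning of the atrioventricular canal and the growth of the chambers.

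The share of non-control spots well above background lay between 36.3% and 50.7% per array, and no spot was saturated. Kcne1 itself, the gene behind the reporter, averaged 1.67 ± 0.57 (SD, n = 4) in GFP-high against 0.37 ± 0.39 (SD, n = 4) in GFP-low (log2 levels, limma adjusted p = 0.203). The labelled cell types were checked against their markers. All 10 cardiomyocyte markers were above background on all 8 arrays. The summed level of the 9 measured conduction system markers (signal relative to the array's 75th percentile) ran from 30.2 to 34.3 in GFP-high and from 13.5 to 18.0 in GFP-low. Id2 carried the largest share of that sum, with mean log2 levels of 4.17 and 2.67. Of the 9, 7 had positive log2 differences, among them Msx2 (2.79), Rspo3 (2.61) and Tbx2 (0.63). The lowest limma adjusted p on that list was 0.0655, for Id2. Hcn4 and Isl1 had negative differences, -0.65 and -0.38. Shox2 cleared background on no array and Tbx3 on 5. The 8 chamber markers ran from 309.0 to 464.1 in GFP-high and from 509.9 to 565.3 in GFP-low. Of these, 6 had negative log2 differences, among them Cited1 (-1.61), Nppa (-0.89) and Gja5 (-0.22). Irx4 and Smpx had positive ones, 0.16 and 0.11. In bulk samples, fewer cells of a type and less RNA per cell cannot be told apart.

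Promoter sequence is shown for Gpc2, Gpc4 and Sdc4, the members besides Gpc1 whose GFP-high arrays all lay above the GFP-low arrays. The windows hold the 250 bases before the RefSeq gene start (build GRCm38.p6, minus strand for each) and are written 5′ to 3′. Capitals mark GC boxes, the letters GGGCGG on either strand, a motif bound by Sp family factors. The windows lie at chr5:138279938-138280187 for Gpc2, chrX:52164924-52165173 for Gpc4 and chr2:164443189-164443438 for Sdc4.
Gpc2: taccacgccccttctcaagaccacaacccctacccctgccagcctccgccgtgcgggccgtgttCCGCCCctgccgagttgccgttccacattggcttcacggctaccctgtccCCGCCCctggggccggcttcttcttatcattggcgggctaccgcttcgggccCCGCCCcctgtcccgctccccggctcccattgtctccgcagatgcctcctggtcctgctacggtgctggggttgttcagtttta
Gpc4: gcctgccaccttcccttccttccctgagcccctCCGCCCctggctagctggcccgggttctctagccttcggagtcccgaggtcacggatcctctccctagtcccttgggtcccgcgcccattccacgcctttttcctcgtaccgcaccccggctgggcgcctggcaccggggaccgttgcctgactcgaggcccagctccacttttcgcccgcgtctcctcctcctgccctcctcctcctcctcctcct
Sdc4: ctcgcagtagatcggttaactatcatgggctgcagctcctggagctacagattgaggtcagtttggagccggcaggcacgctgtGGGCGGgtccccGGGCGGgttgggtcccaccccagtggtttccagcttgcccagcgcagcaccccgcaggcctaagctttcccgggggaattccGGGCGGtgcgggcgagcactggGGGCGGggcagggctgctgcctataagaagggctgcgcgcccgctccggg

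A GC box was found in the windows of all 7 members that matched the RefSeq promoter table, and in 32.7% of the 32851 windows of the same length in that table. Gpc2 held 3, Gpc4 held 1 and Sdc4 held 4. The 7 windows were rich in G and C, at 66.0% to 76.4% of bases against a median of 52.4% over all windows. The E-box letters CANNTG were found in Gpc2 and Sdc1 and in 66.2% of all windows. The T-box core AGGTGT and the GATA letters AGATAA, each searched on both strands, matched none of the 7, against 11.8% and 9.99% of all windows. Gpc1, Gpc6 and Sdc2 were not matched. These matches describe letters and show no binding.

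The comparison asks how the proteoglycan genes differ between cells labelled as conduction system and cells labelled as chamber myocardium. Among the 9 members besides Gpc1, 0 passed limma's test at a Benjamini-Hochberg adjusted p under 0.05. Of all 12884 tested genes, 0.140% passed, 0.0699% higher and 0.0699% lower in GFP-high. With each probe tested on its own, 0.0379% of probes passed and 0 of the members' probes did. At an unadjusted p under 0.05 there were 4 of the 9, 3 higher and 1 lower, against 14.3% of all tested genes (7.91% higher and 6.37% lower). Positive log2 differences (GFP-high minus GFP-low) were found in 7 of the 9, against 62.1% of all tested genes. The median difference of the 9 was 0.58, and that of all tested genes was 0.16. The arrays of the groups did not overlap in 3 of the 9, Gpc2, Gpc4 and Sdc4, all higher in GFP-high. Of all tested genes 8.93% did not overlap, 5.85% higher and 3.08% lower. The members were chosen with results of these arrays known, so these shares describe the list and support nothing about it.

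**Figure D1:**
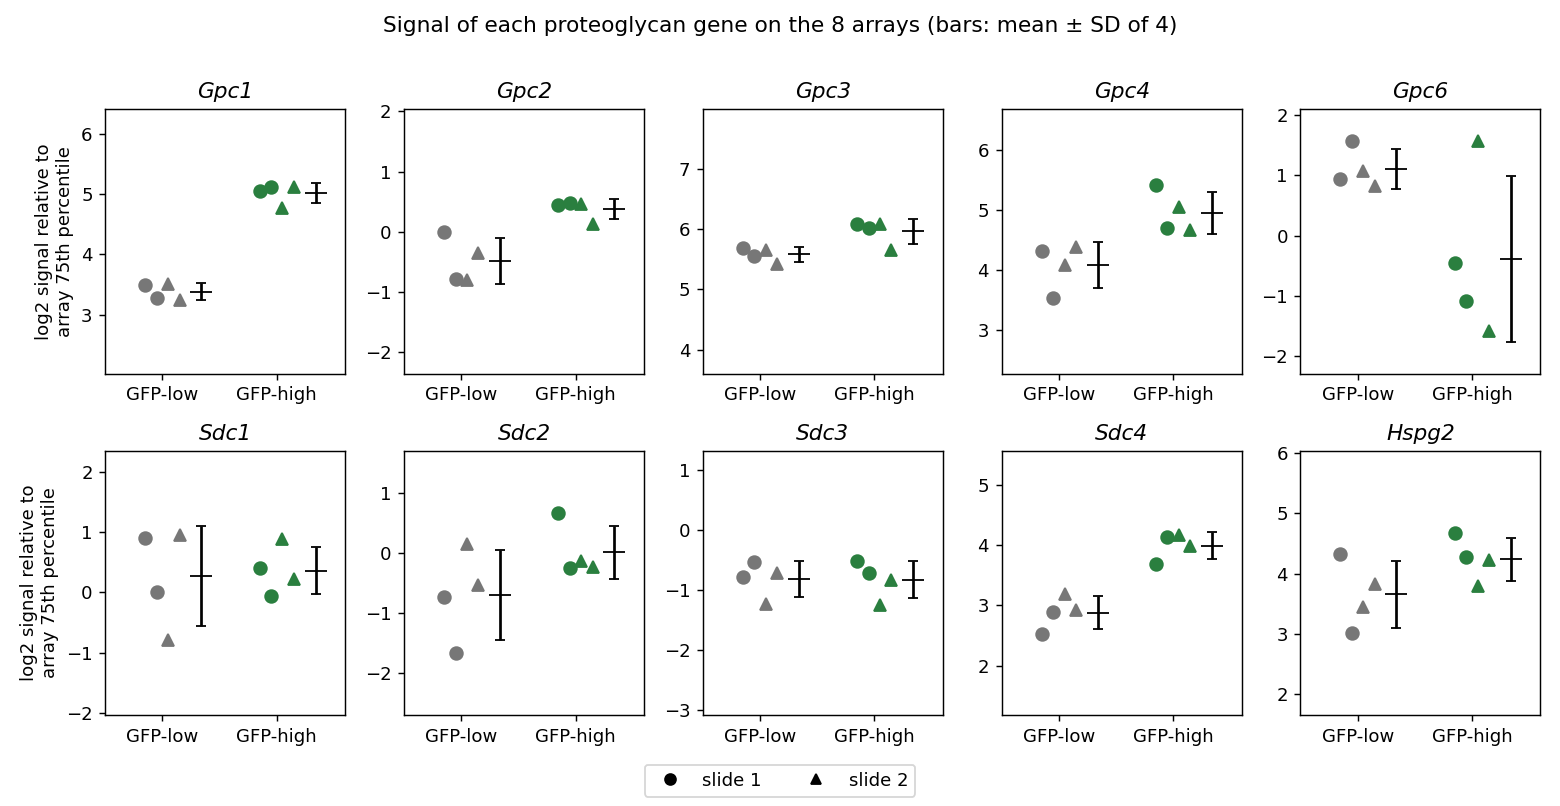
Signal of each of the 10 proteoglycan genes on every array, on the log2 scale relative to the array's 75th percentile; grey is GFP-low, green is GFP-high, circles are slide 1, triangles are slide 2, and bars are the mean ± SD of 4 arrays. All panels span the same height; Gpc1, Gpc2, Gpc4 and Sdc4 separate the groups, and Gpc6 has a single GFP-high array, replicate 3 at 1.56, up among the GFP-low arrays.

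Levels are log2 of the background-subtracted signal relative to each array's 75th percentile, so 0 is the 75th percentile and 1 is a doubling above it. They are compared between arrays for the same probe and not between genes, except in the marker sums. Those sums add levels over genes, so bright probes weigh most in them.

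Gpc1, a lipid-anchored co-receptor for FGFs and other growth factors, had the largest difference of the 10 and was selected for it. Its probe (mm9 chromosome 1, 94756711 to 94756770) read 5.06, 5.12, 4.77 and 5.13 in GFP-high replicates 1 to 4 and 3.49, 3.27, 3.51 and 3.25 in GFP-low replicates 1 to 4. Every GFP-high array lay above every GFP-low array, and the gap between the groups was wider than the range within either. The means were 5.02 ± 0.17 in GFP-high and 3.38 ± 0.14 in GFP-low (SD, n = 4 each), a difference of 1.64, or 3.12-fold. It was 1.71 within slide 1 and 1.57 within slide 2, where each slide held replicates 1 and 2 or 3 and 4 of both groups. A single probe stood for Gpc1, so no second probe could be set beside it.

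Summed levels of markers of other cell types were read beside Gpc1. Of 8 leukocyte markers 2 were measured, with sums from 10.6 to 15.2 in GFP-high and 3.44 to 5.43 in GFP-low, carried mainly by Lyz2. The defining leukocyte genes Ptprc, Csf1r and Itgam were not well above background on any array. Of 9 neural crest and neuron markers 4 were measured, with sums from 33.6 to 38.7 and from 17.6 to 24.4, carried mainly by Uchl1, while Elavl4 and Stmn2 were not well above background on any array. The leukocyte and neural sums separated the groups, as did Gpc1, Gpc2, Gpc4 and Sdc4. The erythroid sums overlapped, from 10.6 to 87.6 in GFP-high and from 6.04 to 75.4 in GFP-low. So did the cushion mesenchyme sums (2.01 to 4.45 and 2.69 to 10.9) and the epicardium sums (7.98 to 9.23 and 5.32 to 8.31). The part of these cell types in the differences of those genes was not tested.

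The 5 tested genes whose pattern over the 8 arrays was nearest to that of Gpc1 were Adm, Lyz2, Cox6a2, Cacna2d2 and Id2. Nearness was the root mean square difference of array values, each gene centred on its own mean, over 12883 genes. It was 0.18 for Adm, which encodes the vasodilator peptide adrenomedullin, 0.20 for Lyz2, a lysozyme gene, and 0.22 for Cox6a2, a muscle subunit of cytochrome oxidase. It was 0.24 each for Cacna2d2, a calcium channel accessory subunit, and Id2, an inhibitor of helix-loop-helix factors. Their log2 differences between the groups ran from 1.29 to 1.87. The nearest member was Sdc4, at 0.38 and in place 41 of all genes. These values describe likeness over 8 arrays and nothing of shared function.

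The nearest gene to each of the other members was found in the same way. It was Amotl2 for Gpc2 (0.12), Dusp6 for Gpc3 (0.06), Mrrf for Gpc4 (0.13) and Lrp11 for Gpc6 (0.39). For the syndecans it was AK028520 for Sdc1 (0.17), Ss18l1 for Sdc2 (0.21), Sost for Sdc3 (0.07) and Gstk1 for Sdc4 (0.21), and for Hspg2 it was Sgk1 (0.09). Gpc6 had the most distant nearest gene, and its own spread over arrays was the widest of the 10. Among the members, Gpc2 and Gpc4 were nearest to each other, at 0.26.

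Gpc2, first known as cerebroglycan from developing neurons, had a smaller difference in the same direction. Its probe (chromosome 5, 138715328 to 138715387) read 0.44, 0.48, 0.46 and 0.13 in GFP-high and -0.01, -0.78, -0.81 and -0.36 in GFP-low, replicates 1 to 4. Every GFP-high array lay above every GFP-low array, by a narrow margin of 0.13 against -0.01. The difference was 0.87 ± 0.26 (SE, 1.83-fold, limma adjusted p = 0.237), with 0.86 and 0.88 within slides 1 and 2. The 95% interval of the fold was 1.21 to 2.76. The intervals given here are for each gene alone and carry no adjustment for the number of genes, so they can leave out 1 where the adjusted p misses the threshold.

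Gpc3 and Gpc4 lie side by side on the X chromosome, with 0 protein-coding genes between their starts in RefSeq. Gpc3, whose loss causes an overgrowth syndrome, is known as a brake on hedgehog signalling. Gpc3 (chromosome X, 49625740 to 49625799) read 6.08, 6.02, 6.09 and 5.66 in GFP-high and 5.69, 5.55, 5.66 and 5.43 in GFP-low. GFP-high replicate 4 lay among the GFP-low arrays, and the other 3 GFP-high arrays lay above them. The difference was 0.38 ± 0.22 (SE, 1.30-fold, limma adjusted p = 0.445), with an interval of the fold from 0.92 to 1.84.

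Gpc4, a glypican of embryonic and neural tissue, had 2 probes, both higher on average in GFP-high. The brighter (chromosome X, 49406388 to 49406447) read 5.41, 4.70, 5.04 and 4.66 in GFP-high and 4.32, 3.53, 4.09 and 4.39 in GFP-low. No GFP-low array reached the lowest GFP-high array. The difference was 0.87 ± 0.29 (SE, 1.83-fold, limma adjusted p = 0.266), with 1.13 within slide 1 and 0.61 within slide 2. Its interval of the fold was 1.15 to 2.91. The other probe (49404329 to 49404388) differed by 0.86, with levels from 0.87 to 2.61 in GFP-high and from 0.15 to 1.27 in GFP-low, so there the groups overlapped.

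Gpc6, a glypican needed for limb bone growth, went the other way, and leaving out GFP-high replicate 3 changed its difference most among the arrays. Its brighter probe (chromosome 14, 118375138 to 118375197) read -0.46, -1.08, 1.56 and -1.59 in GFP-high and 0.94, 1.58, 1.08 and 0.82 in GFP-low. GFP-high replicates 1, 2 and 4 lay below every GFP-low array, while replicate 3 lay near the highest of them. The difference was -1.50 ± 0.63 (SE, limma adjusted p = 0.335), with an interval of the fold from 0.13 to 0.96. Without GFP-high replicate 3 it was -2.15 (limma adjusted p = 0.0654). Leaving out any other array gave a difference from -1.59 to -1.10, with a limma adjusted p from 0.384 to 0.550. GFP-high replicate 3 also had the fewest spots well above background of all arrays, 15735. It had the highest erythroid marker sum too, 87.6. The other GFP-high arrays had 10.6 to 16.5, and GFP-low arrays had 6.04 to 75.4. The part of that array in the result was not tested beyond leaving it out.

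The second Gpc6 probe (mm9 chromosome 14, 118364029 to 118364088, plus strand) is shown because it belongs to the only glypican that leaned towards GFP-low.
Gpc6 probe: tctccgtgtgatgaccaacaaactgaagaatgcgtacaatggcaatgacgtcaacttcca

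It was well above background on 0 GFP-high arrays and on 2 GFP-low arrays, replicate 3 at -0.17 and replicate 4 at 0.46. GFP-low replicates 1 and 2 read -3.16 and -3.31 without clearing background. The mean signals were -4.39 in GFP-high and -1.55 in GFP-low, and no fold is given because GFP-low too was measured on only 2 of its 4 arrays. GFP-low replicate 4, the brightest array here, was the dimmest of the GFP-low arrays on the other probe, so the probes differ in the order of arrays. Only GFP-low replicates 3 and 4 cleared background, so this probe gives no second measure of direction. Gpc5, the neighbour of Gpc6 on chromosome 14, cleared background on no array.

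Sdc4, the syndecan of focal adhesions and a receptor partner in FGF signalling, had the smallest adjusted p of the 9. Its brighter probe (chromosome 2, 164251211 to 164251270) read 3.68, 4.14, 4.17 and 3.98 in GFP-high and 2.53, 2.88, 3.19 and 2.92 in GFP-low. The groups did not overlap, and GFP-high was higher within each replicate number by 0.98 to 1.26. The difference was 1.11 ± 0.24 (SE, 2.16-fold, limma adjusted p = 0.157), with 1.21 within slide 1 and 1.02 within slide 2. The interval of the fold was 1.47 to 3.18. The second probe (164250116 to 164250175) gave 1.04, with GFP-high from 2.76 to 3.74 and GFP-low from 1.81 to 2.83, so the groups met at the edge.

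Sdc2, a syndecan of mesenchymal and vascular cells, gave opposite signs on its probes. The brighter (chromosome 15, 32962294 to 32962353) read 0.67, -0.26, -0.13 and -0.24 in GFP-high and -0.74, -1.67, 0.15 and -0.54 in GFP-low. GFP-low replicate 3 lay above 3 of the GFP-high arrays. The difference was 0.71 ± 0.41 (SE, limma adjusted p = 0.450), and it was 1.41 within slide 1 but 0.01 within slide 2. The other probe (32964204 to 32964263) differed by -1.92, led by GFP-high replicate 1 at -5.36, which was not well above background. The mean over both probes had a difference of -0.60, so no direction can be given for Sdc2.

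Sdc1, best known from epithelia and plasma cells, and Sdc3, best known from neurons and muscle precursors, had differences near 0. Sdc1 (chromosome 12, 8799383 to 8799442) read 0.40, -0.05, 0.88 and 0.22 in GFP-high and 0.91, 0.00, -0.79 and 0.96 in GFP-low. Its difference was 0.09 ± 0.43 (SE, limma adjusted p = 0.933), negative within slide 1 (-0.28) and positive within slide 2 (0.47). The spread of the GFP-low arrays was wide, and the interval of the fold ran from 0.54 to 2.11.

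Sdc3 (brightest probe, chromosome 4, 130378900 to 130378959) read -0.53, -0.71, -1.25 and -0.83 in GFP-high and -0.78, -0.53, -1.24 and -0.72 in GFP-low. The arrays of the groups were interleaved, and both replicates 3 were the lowest of their group. The difference was -0.01 ± 0.27 (SE, limma adjusted p = 0.989), and the interval of the fold, 0.65 to 1.51, left room for a change of that size either way. The second probe (130382015 to 130382074) differed by 0.53 with overlapping arrays, and another cleared background on no array.

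Hspg2 encodes perlecan, which ties laminin and collagen networks together in basement membranes. Its probe (chromosome 4, 137126392 to 137126451) read 4.67, 4.27, 3.79 and 4.22 in GFP-high and 4.32, 3.02, 3.44 and 3.83 in GFP-low. Each GFP-high array lay above the GFP-low array of the same number, but the groups overlapped. The difference was 0.58 ± 0.34 (SE, 1.50-fold, limma adjusted p = 0.450), with an interval of the fold from 0.88 to 2.57. Endothelium is a known source of perlecan, and 5 of 10 endothelial markers were measured, with sums from 4.28 to 6.79 in GFP-high and from 3.35 to 6.85 in GFP-low. Those sums overlapped, the endothelial receptor gene Tek cleared background on no array, and Pecam1 did so on 1. Egfl7 and Esam, also endothelial markers, had differences of 0.64 and 0.66 (limma adjusted p = 0.357 and 0.351), with the arrays apart for Egfl7. The other measured markers, Nfatc1, Kdr and Cdh5, had differences of -0.46, -0.04 and -0.03. The median of the endothelial list was -0.03. The part of endothelium in the Hspg2 values was not tested.

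**Figure D2:**
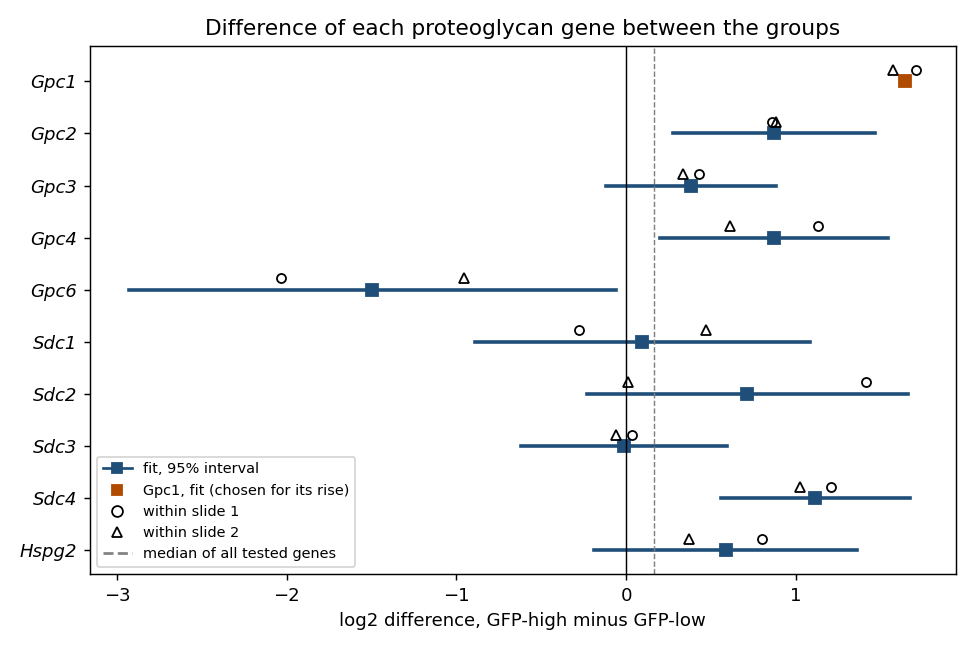
Log2 difference of each proteoglycan gene, GFP-high minus GFP-low, with squares for the fit over 8 arrays, lines for the 95% interval of each gene alone, circles for slide 1 and triangles for slide 2; Gpc1 has no interval because it was chosen for its rise. Besides Gpc1, the genes Sdc4, Gpc2, Gpc4, Gpc3, Hspg2 and Sdc2 lie to the right of 0 on both slides. Gpc6 lies to the left at -1.50, and the slides disagree most for Sdc2 (1.41 and 0.01).

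**Figure D3:**
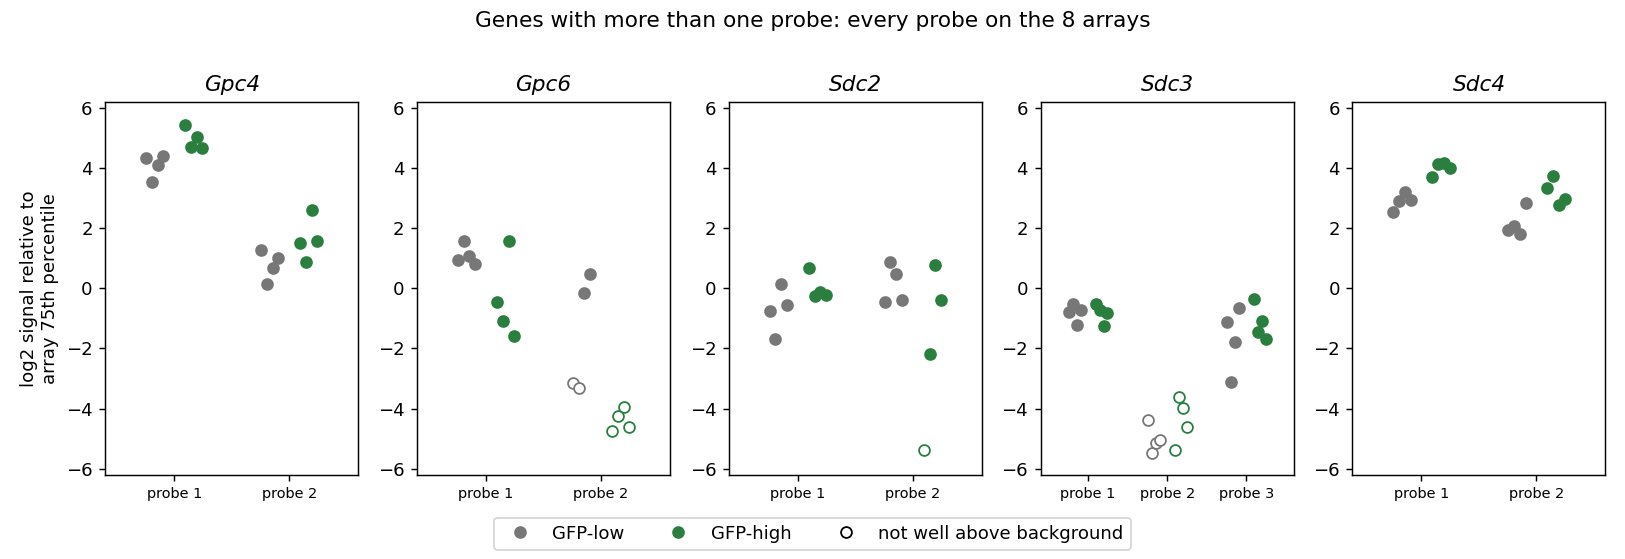
Signal of every probe of the 5 genes with more than 1 probe, log2 relative to the array's 75th percentile, grey for GFP-low, green for GFP-high and open circles for spots not well above background. The probes of Gpc4 and of Sdc4 show like differences (0.87 and 0.86, and 1.11 and 1.04), while those of Sdc2 have opposite signs (0.71 and -1.92).

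Over all 16 probes, 13 were well above background on all 8 arrays. The plot of every probe sets side by side the genes whose probes share a sign and size, Gpc4 and Sdc4, and those whose probes do not. Each of the 9 members stayed short of the threshold under each of the 21 other settings tried. The number of arrays limits the precision, so a member that misses the threshold is not shown to be alike in both groups.

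The chains are built and trimmed by enzymes whose genes were described from lists drawn up with earlier results of these arrays known. Of the 81 tested genes on the 10 lists, out of 121 listed, 0 passed limma's test, and 10 higher and 4 lower had an unadjusted p under 0.05, against 7.91% and 6.37% of all tested genes. The counts of positive genes per list are to be read beside the 62.1% of all tested genes that were positive and their median of 0.16. Per list, 0 to 2 genes had arrays apart and higher in GFP-high, and 0 or 1 apart and lower. Of all tested genes, 5.85% were apart and higher and 3.08% apart and lower. The genes named below were picked for the smallest p of their list, so arrays apart describe them and support nothing.

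The first set begins and lengthens the chain. Of 12 genes 11 were tested, 7 of them positive, with a median log2 difference of 0.19. Extl3, which starts heparan sulfate on the linker, had 0.88 ± 0.23 (SE, limma adjusted p = 0.200) with arrays of the groups apart, and the related transferase gene Extl2 had -1.30 ± 0.51 (0.318). The set that sulfates the chain and supplies its sulfate donor had 13 of 20 genes tested, 9 positive, with a median of 0.24. There, Slc35b3, a Golgi carrier of the sulfate donor, had -1.97 ± 0.36 (SE, limma adjusted p = 0.112) but was well above background on only 1 GFP-high array. Hs3st3a1, a chain sulfotransferase, had 3.09 ± 0.94 (0.240) with 3 GFP-high arrays and 1 GFP-low array above background. Where most arrays of a group did not clear background, as for these last genes, the size of the difference is not a measured fold.

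Genes that edit, cut or shed the finished chains and cores had 7 of 12 tested, 4 positive, with a median of 0.17. Sulf1, which removes sulfate groups from the chain outside the cell, had 1.19 ± 0.37 (SE, limma adjusted p = 0.244) with no overlap of arrays. Furin, a protease gene, had 0.52 ± 0.31 (0.461). The glypican-releasing gene Notum cleared background on no array.

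Among the other heparan sulfate proteoglycans 4 of 8 were tested, with a median of 0.01. Agrn, which encodes the basement membrane proteoglycan agrin, had 0.96 ± 0.21 (SE, 1.95-fold, limma adjusted p = 0.157), with means of 5.23 ± 0.07 in GFP-high and 4.27 ± 0.18 in GFP-low (SD, n = 4 each). Its arrays did not overlap, and its difference was 1.03 and 0.89 within the slides. Tgfbr3, or betaglycan, had -0.72 ± 0.65 (0.613). Of the chondroitin and dermatan sulfate proteoglycans 6 of 11 were tested, with a median of 0.03; Acan, or aggrecan, had -0.80 ± 0.77 (SE, limma adjusted p = 0.635) and Cspg5 -0.44 ± 0.46 (0.666).

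Partners inside and outside the cell were read in the same way. Of the genes for proteins that bind the syndecan tail, 6 of 7 were tested, with a median of -0.19. Sdcbp, which encodes the adaptor syntenin, had -0.32 ± 0.23 (SE, limma adjusted p = 0.538), and the kinase gene Prkca -1.14 ± 0.68 (0.458). The basement membrane partners of perlecan had 12 of 13 tested and a median of 0.05, and their laminin chains leaned both ways. Lama4 had -0.79 ± 0.28 (SE, limma adjusted p = 0.278), with its arrays apart, and Lama5 had 0.87 ± 0.35 (0.318).

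Ligands and receptors that use heparan sulfate made up the remaining lists. Of the FGF ligands and receptors 8 of 15 were tested, 6 positive, with a median of 0.26. Fgfr1 had 0.76 ± 0.33 (SE, limma adjusted p = 0.342), with arrays apart by a narrow margin of 1.95 against 1.91. The decoy receptor gene Fgfrl1 had 0.77 ± 0.31 (SE, limma adjusted p = 0.324). Of the heparin-binding growth factors 8 of 10 were tested, 6 positive, with a median of 0.40. Hbegf, an EGF family ligand that binds heparan sulfate, had 0.97 ± 0.25 (SE, limma adjusted p = 0.187) with arrays apart, and Pgf, a VEGF family ligand gene, had 2.17 ± 1.14 (0.409). Of the hedgehog genes 6 of 13 were tested, with a median of -0.20; Smo had -0.80 ± 0.46 and Ptch1 -0.56 ± 0.37 (SE, limma adjusted p = 0.441 and 0.505), and Shh, Gli1 and Hhip were not well above background on any array.

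**Figure D4:**
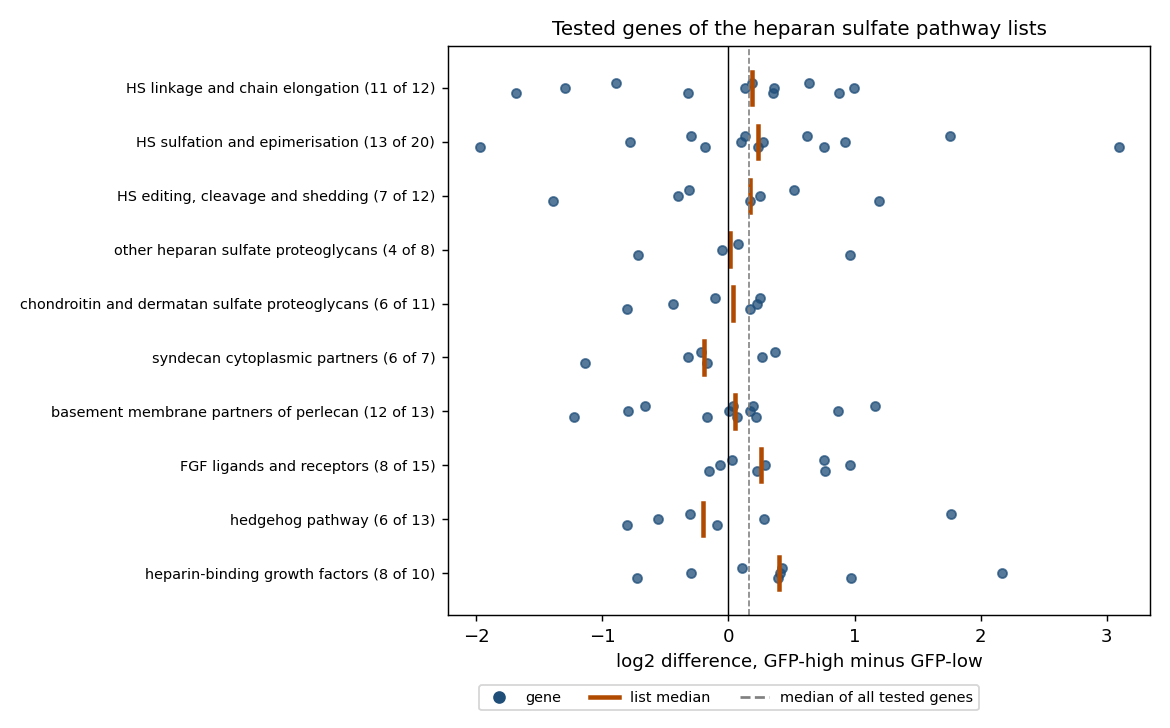
Log2 difference, GFP-high minus GFP-low, of the tested genes on 10 lists around heparan sulfate; each dot is a gene, thick bars are list medians, the dashed line is the median of all tested genes (0.16), and brackets give genes tested of genes listed. List medians run from -0.20 (hedgehog pathway) to 0.40 (heparin-binding growth factors), and the genes of each list lie on both sides of 0.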

How the data were processed

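RNA of 8 samples was amplified from 5 ng and hybridised to 1-colour Agilent arrays. Per the file headers, the deposited intensity values are Feature Extraction processed signals (version 10.5.1.1 per the submitters' processing notes), background-subtracted and detrended, on a linear scale, with flags for spots well above background. The deposited whole-series table held the same intensity values. Log2 intensities were scaled by subtracting the 75th percentile of the non-control spots on the same array. Outlier spots were left out, spots of a probe were averaged, and the brightest probe stood for a gene. Gene names came from the deposited files, updated by RefSeq GRCm38.p6 symbols for 33096 of 41174 probes.

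Genes well above background on at least 4 arrays were fitted by group with limma 3.58.1 in R 4.3.3, with Benjamini-Hochberg adjustment over 12884 genes at 0.05. The fit was tested on simulated data. The members, the lists and the rule for named genes were chosen with earlier results of these data known. That rule takes all members, the 2 genes of smallest p per pathway list, the nearest genes in pattern and the defining markers. Replicates 1 and 2 of each group shared slide 1 and its scan, and the rest shared slide 2. Alternatives covered background, scaling, filter, floor, probes, blocks, left-out arrays and single slides.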

Additional observations from a re-analysis of the deposited data

Results flagged for a closer look

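In 3 of the 32 groups of 4 arrays examined over the 16 member probes, a single array stood apart, by a gap to its nearest neighbour above Dixon's 95% critical share of the group's range. Chance alone gives such a gap in about 1 of 20 groups. For Gpc2 the gap was 0.886 of the GFP-high range, with replicate 4 low at 0.13. For Gpc3 it was 0.846 of the GFP-high range, with replicate 4 low at 5.66. For the brighter Sdc2 probe it was 0.866 of the GFP-high range, with replicate 1 high at 0.67. The cause was not tested.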

How the results depend on the processing

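The 9 members besides Gpc1 gave 0 calls, and the pathway lists gave 0 calls, under each setting run, with 790 to 2578 genes at an unadjusted p under 0.05. The Gpc1 difference, a description, ran from 1.41 (normexp) to 1.72. The 18 genes past limma's threshold became 9 under quantile normalization, 4 under median scaling, 3 with no filter, 11 with only genes above background on all 8 arrays, 11 with slide as a block, 0 within slide 1, 0 within slide 2, 7 with each probe tested on its own (chosen after seeing the data), and 0 to 7 without 1 array. The 9 higher and 9 lower calls became 14 and 6 under normexp, 15 and 10 with a common floor, 14 and 5 with trend and robust variances, 10 and 1 with genes above background on all 8 arrays, and 3 and 8 with slide as a block. Genes whose groups did not overlap, 1151, became 1355 to 2831 without 1 array, 6749 within slide 1 and 4037 within slide 2, where fewer arrays must separate. Sdc1 turned to -0.08 without GFP-high replicate 3, -0.26 without GFP-low replicate 3 and -0.28 within slide 1. Sdc2 turned to -0.60 as the mean over probes. Without 1 array, Sdc1 ran from -0.26 to 0.32 and Sdc3 from -0.15 to 0.13, with Sdc3 positive without GFP-low replicate 1, 2 or 4 or GFP-high replicate 3. Sdc3 was also positive at 0.046 (normexp), 0.026 (quantile), 0.37 (mean over probes) and 0.036 (within slide 1). The hedgehog median was 0.16 with no filter, 0.25 within slide 1 and -0.56 within slide 2. Of the 10 list medians 6 took both signs over the settings: hedgehog, editing (-0.31 to 0.49), linkage (-0.01 to 0.33), basement membrane (-0.23 to 0.16), chondroitin (-0.28 to 0.34) and other heparan sulfate proteoglycans (-0.18 to 0.28). Other causes were not tested.

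Replicate numbers were not taken as pairs: deviations of same-numbered arrays correlated at 0.115, 0.154, 0.303 and 0.0651, and 7 of 8 arrays correlated best with their own number (GFP-low replicate 4 did not). All 4 are positive but not all are over 0.1, so a shared source of same-numbered arrays is a hint from the data, not the design. When replicate number entered the fit as a block, the 18 calls became 0, as 0 genes cleared limma's threshold and 2382 had an unadjusted p under 0.05.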

Other observations

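Gpc3 and Gpc4 are X-linked, and the labels do not give the sex of the embryos. Xist, the RNA of the inactive X, was read after the data were seen. It was -0.52 and -1.21 on replicate 1 of GFP-high and GFP-low, and between 1.33 and 2.62 on the other 6 arrays. Of the Y-linked genes read in the same step, Eif2s3y was well above background on 7 arrays. It read -2.35, -5.26, -0.63 and -0.07 in GFP-high and -0.83, -0.35, 0.16 and 0.23 in GFP-low, replicates 1 to 4. Eif2s3y was thus lower in GFP-high within each replicate number. Uty, Kdm5d and Ddx3y were well above background on 3, 2 and 1 arrays. The Gpc4 difference ran from 0.61 to 1.13 over the settings run, but no setting took account of embryo sex. The part of embryo sex in either gene was not tested.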
